A study of Mus musculus with 16 samples.

Results

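The hair shaft keratins are the hard keratins that fill the cortex, the cuticle and the matrix of the hair. 10 of their genes were chosen by symbol, Krt31, Krt33a, Krt33b, Krt34, Krt35, Krt81, Krt82, Krt83, Krt85 and Krt86, out of 23282 rows in tables of read counts from mouse dorsal skin, with their levels in these data already known. Their levels and fold changes are therefore given as a description, with no p-value. All 10 passed the filter on low counts, as did 14854 rows in all.

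The skins came from 4 groups of male wild-type C57BL/6N mice, bought at 3 weeks of age and given 1 week to adapt, with 4 libraries per group from skins picked at random. Cont mice ate normal chow. LowAhR mice ate a diet low in ligands of the aryl hydrocarbon receptor (AhR), a sensor of dietary and environmental compounds, for 12 weeks on ligand-free paper bedding. LowAhR+AD mice ate the same diet and, after its first 2 weeks, had 1% 2,4-dinitrochlorobenzene (DNCB), a hapten that causes dermatitis resembling atopic dermatitis (AD), put on the dorsal skin 2 times a week for 10 weeks. LowAhR+AD+BJ mice had the diet, the DNCB and 1 g/kg of Bojungikgi-tang water extract (BJIKT), a herbal formula, by mouth each day over the same time. No group had DNCB on normal chow, so a difference of LowAhR+AD from Cont holds both the diet and the DNCB. Whether Cont and LowAhR backs were shaved or given the vehicle of acetone and olive oil is not given in the sources used here.

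Hair keratins come in an acidic type I and a basic type II, and 1 chain of each type pairs to start a filament. Krt35 and Krt85 are switched on first, in the matrix at the base of the follicle and in the cuticle, Krt82 belongs to the cuticle, and the others build the cortex, where keratin-associated proteins cross-link the filaments. The shaft is made only while a follicle is in its growth phase, anagen, inside an inner root sheath with keratins of its own. The factors Hoxc13, Foxn1, Msx2 and Lef1 are known to act in the hair matrix, and Hoxc13 is known to bind promoters of hair keratin genes.

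The genes lay in keratin clusters on 2 chromosomes (GRCm38, GENCODE M21). The 5 type I members spanned 85047 bases of chromosome 11, all on the minus strand: Krt33a at chr11:100011195-100016212, Krt33b at chr11:100023634-100029868, Krt34 at chr11:100037347-100041554, Krt31 at chr11:100046646-100050551 and Krt35 at chr11:100092193-100096241. On chromosome 15 lay Krt81 at chr15:101459061-101463751 and Krt82 at chr15:101541214-101550667, both on the minus strand, and Krt86 at chr15:101473478-101479986 on the plus strand. RefSeq promoters (GRCm38.p6) matched 4 members. The 250 bases before the start of each are shown on the gene's strand because these members moved together, and capitals mark matches to the motifs named after them. The windows are chr11:100050552-100050801 for Krt31, chr11:100029869-100030118 for Krt33b, chr11:100041555-100041804 for Krt34 and chr15:101550660-101550909 for Krt82.
Krt31: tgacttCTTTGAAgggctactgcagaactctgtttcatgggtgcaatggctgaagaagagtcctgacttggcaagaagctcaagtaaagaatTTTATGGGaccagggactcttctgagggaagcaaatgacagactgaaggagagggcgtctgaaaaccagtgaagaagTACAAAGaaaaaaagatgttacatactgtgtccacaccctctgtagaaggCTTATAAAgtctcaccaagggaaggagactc
Krt33b: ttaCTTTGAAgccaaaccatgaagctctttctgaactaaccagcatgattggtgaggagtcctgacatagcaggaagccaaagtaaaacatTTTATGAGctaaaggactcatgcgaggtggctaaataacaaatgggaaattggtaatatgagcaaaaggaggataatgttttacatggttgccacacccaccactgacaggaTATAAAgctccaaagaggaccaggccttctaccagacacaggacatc
Krt34: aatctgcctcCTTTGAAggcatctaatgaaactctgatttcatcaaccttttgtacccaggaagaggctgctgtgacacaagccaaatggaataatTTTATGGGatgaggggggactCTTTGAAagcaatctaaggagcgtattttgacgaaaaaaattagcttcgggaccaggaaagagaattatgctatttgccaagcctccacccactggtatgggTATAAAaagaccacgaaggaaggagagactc
Krt82: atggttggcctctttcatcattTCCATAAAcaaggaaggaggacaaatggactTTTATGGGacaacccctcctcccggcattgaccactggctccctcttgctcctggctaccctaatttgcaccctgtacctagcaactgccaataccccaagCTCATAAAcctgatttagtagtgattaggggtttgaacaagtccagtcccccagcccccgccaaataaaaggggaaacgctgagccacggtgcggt
The TATA box, TATAAA on the gene's strand, was found in 3 of the 4, in Krt31, Krt33b and Krt34, beginning 29, 47 and 31 bases before the start, and in 7.59% of 32851 promoters of the same length. The words CTTTGAA or CTTTGAT or CTTTGTA or CTTTGTT, bound by factors of the TCF and LEF family and read on both strands, were in the same 3 and in 14.8% of all promoters. The HOXC13 word, TTAATN or TTTATN followed by AA, AG, GA or GG on either strand, was in all 4 and in 17.2% of all promoters. On the gene's strand it began 158 bases before the start in Krt31, 159 in Krt33b, 154 in Krt34 and 197 in Krt82, and a second match in Krt31, on the other strand, overlaps the TATA box. GCGTG, the core of the site bound by AhR, was in 0 of the 4 and in 28.2% of all promoters, which says only that these letters are not in these windows.

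Levels are CPM, read counts divided by a library size scaled by TMM. The counts came from 3' sequencing with about 1 read per transcript, so a level does not grow with a gene's length. Library totals were 7080508 to 8773876 counts in Cont and LowAhR and 10614393 to 13467477 in the 2 DNCB groups, and a count of 0 in a Cont library allows up to 0.359 to 0.387 CPM, which covers counting error only. 1 library stood apart: in LowAhR+AD replicate 1, 3.94% of the rows with at least 20 counts in each of its 3 group mates were at 0, against at most 1.07% in the other 15 libraries. Where it changes how many hair keratins were called or did not overlap, the number is given with and without it. Other values include it unless stated. RefSeq lists Krt83 as an older symbol of Krt87 and gives 5430421N21Rik as a synonym of both Krt83 and Krt86. The counts hold Krt83 and 5430421N21Rik as separate rows. The row Krt83 comes just before 1700011A15Rik, now Krt88, and the row 5430421N21Rik just after Krt86. On chromosome 15 Krt87 lies before Krt88, and the gene now named Krt83 lies after Krt86. By this order the row Krt83 stands in the place of Krt87, and 5430421N21Rik in that of the present Krt83. No position is given for the row Krt83, and in this text Krt83 means that row. In bulk skin, more cells making a keratin and more RNA per cell cannot be told apart.

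The hair keratins were very low in Cont skin. Their summed level was 2.05, 23.6, 39.1 and 199.5 CPM in Cont replicates 1 to 4, which is at most 0.0207% of a library. In LowAhR the sum was 1598, 11.5, 321 and 5817 CPM, so 1 library was as low as Cont and another was above 1 LowAhR+AD library. It was 2117, 18332, 9576 and 12199.9 CPM in LowAhR+AD, up to 1.79% of a library, and 2712, 9032, 10489 and 7219 CPM in LowAhR+AD+BJ. All 8 DNCB libraries were above all 4 Cont libraries in this sum.

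Krt35 and Krt85, the type I and type II keratins of the matrix and cuticle, are the first of the shaft program. Krt35 was at 0, 7.88, 4.19 and 11.1 CPM in Cont and at 38.3, 0.256, 14.8 and 157 CPM in LowAhR. It was at 432, 404, 381 and 278 CPM in LowAhR+AD and at 68.4, 172, 164 and 169.9 CPM in LowAhR+AD+BJ. The LowAhR+AD libraries lay above every other library for Krt35, LowAhR+AD+BJ included. Krt85 was at 0, 7.88, 6.17 and 13.4 CPM in Cont and at 141, 0, 28.5 and 409 CPM in LowAhR. In LowAhR+AD it was at 282, 1342, 599 and 734 CPM and in LowAhR+AD+BJ at 150.4, 462, 567 and 399 CPM. For Krt85 both DNCB groups overlapped with each other and with LowAhR, and neither overlapped with Cont.

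Krt82 marks the shaft cuticle. It was at 0, 0.775, 1.48 and 2.15 CPM in Cont, at 7.03, 0, 4.03 and 25.0 CPM in LowAhR, at 10.8, 78.1, 70.4 and 51.9 CPM in LowAhR+AD, and at 6.11, 23.1, 26.3 and 17.3 CPM in LowAhR+AD+BJ. LowAhR+AD replicate 1 was the only library of its group inside the LowAhR+AD+BJ range.

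Among the cortex keratins, Krt81, a type II chain, was at 0, 0, 17.8 and 85.3 CPM in Cont and at 962, 7.93, 192 and 2945 CPM in LowAhR. In LowAhR+AD it was at 633, 10765, 5297 and 7167 CPM, and in LowAhR+AD+BJ at 1519, 5179.6, 5906 and 4079 CPM. Replicate 1 was the lowest library of both DNCB groups, and in LowAhR+AD it was below 2 LowAhR libraries. Krt86, another type II chain, was at 0, 0, 1.36 and 9.93 CPM in Cont, at 80.8, 0, 9.75 and 324 CPM in LowAhR, at 134, 847, 374 and 666 CPM in LowAhR+AD, and at 133, 482, 523 and 334 CPM in LowAhR+AD+BJ. Krt31, a type I chain, was at 1.92, 1.68, 1.97 and 20.2 CPM in Cont, at 54.9, 1.02, 14.0 and 498 CPM in LowAhR, at 211, 969, 731 and 689 CPM in LowAhR+AD, and at 158, 421, 598 and 446 CPM in LowAhR+AD+BJ. The libraries of a group kept nearly the same order from Krt81 to Krt86 and Krt31. The type I chains Krt33a, Krt33b and Krt34 had ranges of 0.123 to 24.6, 0 to 13.9 and 0 to 18.9 CPM in Cont, and of 0.767 to 552, 0 to 472 and 1.53 to 431 CPM in LowAhR. In LowAhR+AD the ranges were 105 to 1382 CPM for Krt33a, 46.6 to 1225 CPM for Krt33b and 262 to 1319 CPM for Krt34. In LowAhR+AD+BJ they were 244 to 964, 224 to 821 and 209.8 to 917 CPM.

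The row named Krt83 was close to the limit of detection. It had 0 counts in all 4 Cont libraries and in LowAhR replicates 1 to 3, and 27 counts, 3.22 CPM, in LowAhR replicate 4. It had 9, 28, 19 and 5 counts in LowAhR+AD and 0, 5, 32 and 2 in LowAhR+AD+BJ. The row 5430421N21Rik, looked up after its values were seen, behaved like the cortex members. It was at 0.128, 0, 0.617 and 3.35 CPM in Cont, at 48.4, 0, 13.9 and 213 CPM in LowAhR, at 164, 558, 237 and 412 CPM in LowAhR+AD, and at 77.1, 244, 233 and 223 CPM in LowAhR+AD+BJ.

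**Figure D1:**
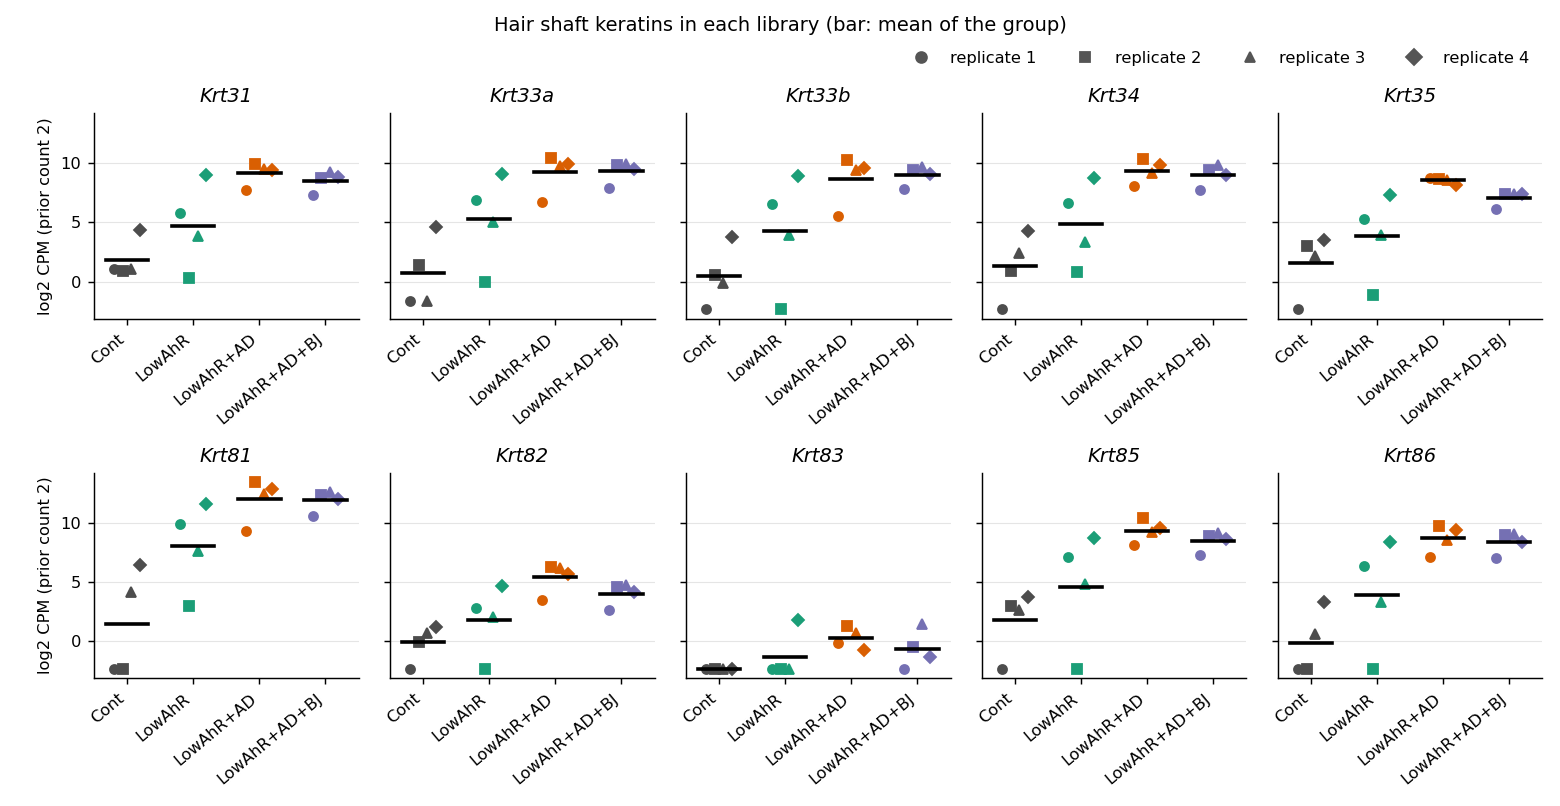
Level of each hair keratin in every library, as log2 CPM with a prior count of 2, by group, with the marker shape giving the replicate number and a bar for the group mean. Cont is low throughout. LowAhR is spread from the Cont levels to above the lowest LowAhR+AD library for all but Krt35. The 2 DNCB groups are high for all but Krt83, with replicate 1 often lowest.

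The comparison of LowAhR with Cont asks what the low AhR ligand diet, given with the paper bedding, did without DNCB. All 10 hair keratins were higher in LowAhR on average, with a median of 4.57 on the log2 scale or 23.7-fold, and by 3.01 (Krt82) to 5.31 (Krt81) among the 9 with counts in Cont, while the median of all 14854 genes was 0.03. Krt81 was higher by 5.31 ± 1.64 (SE), Krt33b by 5.17 ± 1.53, Krt85 by 4.39 ± 1.26 and Krt35 by 3.18 ± 1.03. 0 of the 10 were called by edgeR's quasi-likelihood test at a Benjamini-Hochberg adjusted p under 0.05, beside a background of 0% of all genes called higher, with the lowest adjusted p over all genes at 0.0629 and 2031 genes at an unadjusted p under 0.05. DESeq2 called 5 of the 10, Krt31, Krt33a, Krt33b, Krt34 and Krt81, where it called 2.4% of all genes higher. For 0 of the 10 did the 4 LowAhR libraries lie above all 4 Cont libraries, beside 5.68% of all genes. LowAhR replicate 2 lay within or below the Cont range for every member. Without it, edgeR called 5, Krt31, Krt33b, Krt35, Krt85 and Krt86, where 0.93% of all genes were called higher, and 6 did not overlap, where 8.98% of all genes did not. Without replicate 4, the highest, the median was 2.72. Krt83, at 0 in Cont, was at least 2.15-fold higher, set against 3 counts per Cont library, which gives a median over the members of 4.42. That bound rests on LowAhR replicate 4, since the other 3 LowAhR libraries also had 0 counts of Krt83.

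The comparison of LowAhR+AD with LowAhR asks what DNCB added on the same diet. All 10 were higher on average after DNCB, with a median of 2.32 on the log2 scale or 4.99-fold and a range of 0.58 for Krt83 to 2.83 for Krt35. The matrix and cuticle keratins were higher by 2.83 ± 0.98 (Krt35), 2.35 ± 1.14 (Krt85) and 2.54 ± 0.92 (Krt82), and the cortex keratins other than Krt83 by 2.19 to 2.54. 0 of the 10 were called, where 6.42% of all genes were called higher. Only Krt35 did not overlap between the groups, where 8.92% of all genes lay higher without overlap. 1 library on each side set these counts. Without LowAhR+AD replicate 1, Krt82 was called, where 5.34% of all genes were called higher, and 9 members did not overlap, beside 13.2% of all genes. Without LowAhR replicate 4, 4 were called, Krt31, Krt34, Krt35 and Krt82, where 7.19% of all genes were called higher, 7 did not overlap, beside 13.1% of all genes, and the median was 4.15. limma voom called 7 of the 10, where it called 6.15% of all genes higher.

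Against Cont, the LowAhR+AD skins had higher levels of the hair keratins, with a median log2 difference of 6.81 or 112-fold. Krt81 was higher by 7.85 ± 1.84, Krt86 by 7.46 ± 1.61, Krt33b by 7.39 ± 1.69, Krt33a by 6.91 ± 1.60, Krt34 by 6.88 ± 1.44, Krt85 by 6.75 ± 1.40 and Krt31 by 6.65 ± 1.38. Krt35 at 6.00 ± 1.16 and Krt82 at 5.55 ± 1.10 had the smallest differences of these 9. Krt83 was at least 3.24-fold higher. 9 of the 10, all but Krt83, were called, where 12.3% of all genes were called higher, and all 10 lay above Cont without overlap, where 12.9% of all genes did. The row 5430421N21Rik, outside the 10 and chosen after its values were seen, was higher by 8.34 ± 1.43 and was also called. The genes were chosen with these levels known, and nothing is read from these counts. The 9 calls stood whichever library was left out, while limma voom called 2, Krt31 and Krt35, where it called 10.2% of all genes higher.

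The comparison of LowAhR+AD+BJ with LowAhR+AD asks what BJIKT added. All 10 hair keratins were lower on average with BJIKT, with a median log2 difference of -0.55, or 1.46-fold, and in each case with a standard error of 0.88 or more. The keratin-associated proteins did not follow, with 32 of 49 tested genes higher on average and a median of 0.43. The cuticle and matrix keratins stood lowest, though the gaps between neighbours are smaller than the standard errors and the order was not tested. Krt82 of the cuticle was at -1.53 ± 0.88, Krt35 at -1.38 ± 0.93 and Krt85 at -0.91 ± 1.09, while the 7 cortex keratins were between -0.68 (Krt31) and -0.22 (Krt33a). 0 of the 10 were called, beside a background of 0% of all genes called lower, with the lowest adjusted p over all genes at 0.193 and 1405 genes at an unadjusted p under 0.05, and DESeq2 also called 0 of the 10, among 17 genes called in all. Krt35 alone lay lower without overlap, beside 2.65% of all genes. The median turned on single libraries. Leaving out LowAhR+AD replicate 2 gave -0.10. Of the BJ libraries, leaving out replicate 1 gave -0.21 and leaving out replicate 3 gave -0.84. Without LowAhR+AD replicate 1 it was -0.85 and 4 members lay lower without overlap, Krt31, Krt35, Krt82 and Krt85, beside 4.08% of all genes.

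LowAhR+AD+BJ skins remained far above Cont. Their median difference from Cont was 6.25 on the log2 scale, or 6.23 with Krt83 at its bound of at least 2.13-fold, with Krt81 highest at 7.34 and Krt82 lowest at 4.02 among the other 9. That bound, taken on the group mean, rests mostly on LowAhR+AD+BJ replicate 3 with 32 counts of Krt83. Replicates 1, 2 and 4 had 0, 5 and 2 counts. 9 of the 10, all but Krt83, were called, where 11.2% of all genes were called higher, and 9 did not overlap, where 15.3% of all genes did not. The row 5430421N21Rik, outside the 10, was higher by 7.52 ± 1.39 and was also called. limma voom called 0 of the 10, where it called 9.18% of all genes higher. Against LowAhR the median was 1.67, with Krt34 highest at 2.10 and Krt83 lowest at -0.01. 0 of the 10 were called, where 3.64% of all genes were, and 0 lay above LowAhR without overlap, where 8.91% of all genes did. Without LowAhR replicate 4, 8 did not overlap, beside 14% of all genes, and the median was 3.71. Without LowAhR+AD+BJ replicate 1, 6 did not overlap, beside 12.1% of all genes. LowAhR+AD and LowAhR enter several of these comparisons, so their fold changes share libraries.

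**Figure D2:**
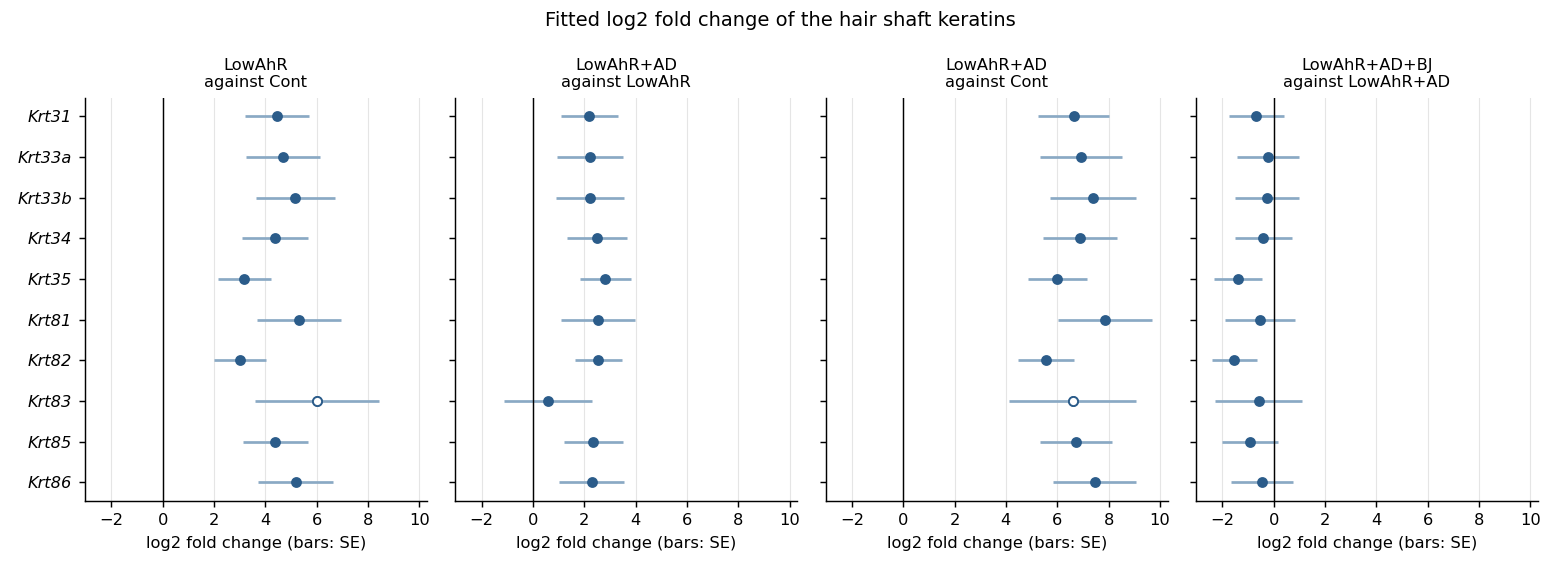
Log2 fold change of each hair keratin in the comparisons between groups, with bars of 1 standard error from the fit over all 16 libraries, and an open circle where Krt83 is set against Cont, in which it had no counts. Differences from Cont are the largest, and in LowAhR+AD+BJ against LowAhR+AD all 10 points lie below 0 with Krt82 and Krt35 lowest.

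The spread between skins of 1 group was itself large for these genes. The SD of log2 CPM within a group had a median over the 10 members of 2.68 in Cont and 3.66 in LowAhR, where the median of all tested genes was 0.46 and 0.49. 7 members in Cont and all 10 in LowAhR lay above the 95th percentile of all genes, which was 1.99 and 1.98. The largest was 4.86, for Krt85 in LowAhR. These values include zeros, since LowAhR replicate 2 had 0 counts of Krt33b, Krt82, Krt83, Krt85 and Krt86. Krt83 had counts in LowAhR replicate 4 only. The part of low counts in this spread was not tested. In the DNCB groups the member median was 1.09 in LowAhR+AD and 0.90 in LowAhR+AD+BJ, beside 0.61 and 0.46 for all genes, and 1 member, Krt33b at 2.13 in LowAhR+AD, lay above the 95th percentile. Krt35 in LowAhR+AD was the most even, with an SD of 0.28. The biological coefficient of variation that edgeR fitted was 0.909 to 1.58 for the members with a median of 1.16, and 0.414 at the median of all genes.

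The same skins were high or low for nearly all of the genes. In LowAhR the order from high to low was replicate 4, 1, 3, 2 for 9 of the 10. In Cont replicate 4 was highest for 9. In LowAhR+AD replicate 2 was highest for 9 and replicate 1 lowest for 8, and Krt35 went against both, since replicate 1 was its highest library. The lowest for Krt83 was replicate 4. In LowAhR+AD+BJ replicate 1 was lowest for all 10. With group means subtracted, the median Pearson r of log2 CPM over the 45 pairs of members was 0.88 and the median Spearman rho 0.78 over 16 libraries, as a description, since depth and scaling are shared by all genes of a library.

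**Figure D3:**
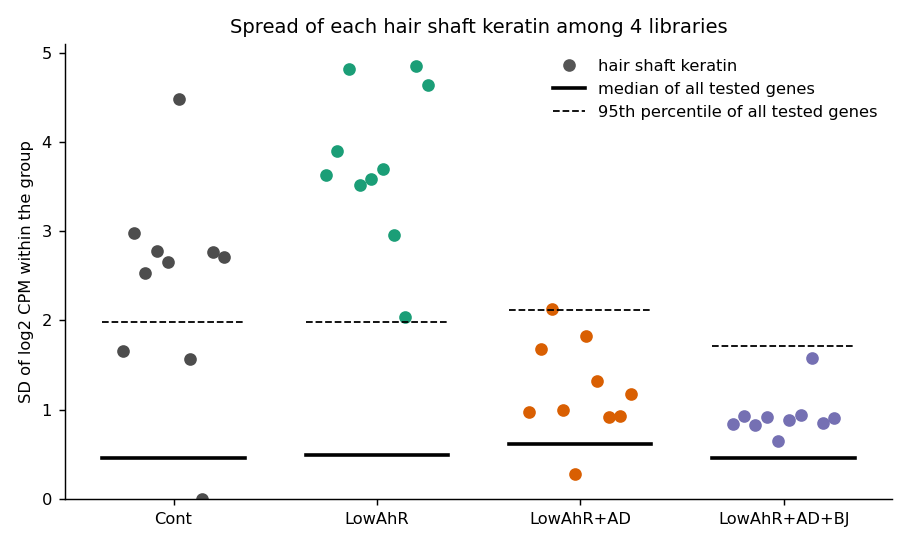
SD of log2 CPM among the 4 libraries of each group for each hair keratin, with a solid line at the median and a dashed line at the 95th percentile of all tested genes in that group. In LowAhR all 10 points lie above the dashed line, and in LowAhR+AD+BJ none does.

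The mix of hair keratins was alike in the DNCB skins other than LowAhR+AD replicate 1, and varied more in LowAhR. The summed type II counts were 1.76 to 2.93 times the type I counts in LowAhR, 1.96 to 2.46 times in LowAhR+AD replicates 2 to 4 and 2.00 to 2.13 times in LowAhR+AD+BJ. Krt81 took 55.3% to 58.7% of the hair keratin counts in LowAhR+AD replicates 2 to 4 and 56.0% to 57.3% in LowAhR+AD+BJ, and Krt35 took 2.20% to 3.98% and 1.56% to 2.52%. In LowAhR replicates 1 to 4 Krt81 took 60.2%, 68.9%, 59.7% and 50.6%, and Krt35 took 2.22% to 4.62%. LowAhR+AD replicate 1 had another mix. There the type II to type I ratio was 1.00, Krt81 took 29.9%, Krt35 took 20.4%, Krt85 took 13.3%, where it took 6.02% to 7.32% in the rest of its group, and Krt31 took 9.99%. Its Krt35 count was 0.683 times its Krt81 count, against 0.0277 to 0.0773 in the other 11 libraries of the 3 diet groups, of which LowAhR replicate 2 had only 90 hair keratin counts. This library had the highest Krt35 of all 16 and the lowest Krt81 of its group. It is also the library with many rows at 0, and the part of that in its mix was not tested. Cont replicates 1 and 2, with 16 and 183 hair keratin counts, had 0 counts of Krt81. In Cont replicates 3 and 4, with 317 and 1668 counts, the type II to type I ratio was 2.17 and 1.25 and Krt35 was 0.236 and 0.130 times Krt81, so Krt35 was also higher relative to Krt81 there than in those 11 libraries. Reads of near-identical copies could pass between genes, and whether they did in the deposited counts was not tested. In the reference the last 300 bases of 8 members, leaving out Krt83 and Krt85, shared 0 of 226 words of 75 bases with any other gene. That covers exact words from the longest coding transcript of each member only.

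**Figure D4:**
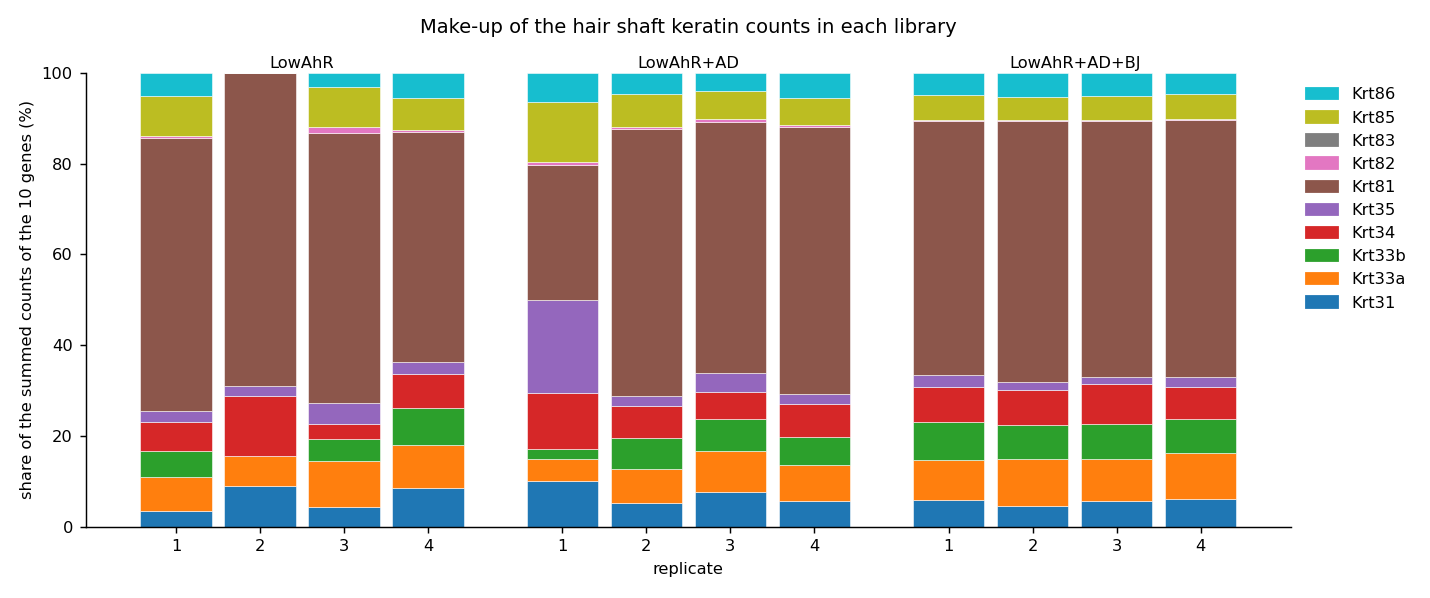
Share in percent of the summed hair keratin counts taken by each of the 10 genes, stacked to 100 for each library of LowAhR, LowAhR+AD and LowAhR+AD+BJ. LowAhR+AD replicate 1 stands out by its Krt35 share of 20.4% and Krt81 share of 29.9%.

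The partners of the hair keratins in the shaft and its sheath followed the same libraries. For the counts of list genes from here on, edgeR called 12.3% of all genes higher in LowAhR+AD against Cont and 6.42% against LowAhR. In LowAhR+AD+BJ it called 11.2% higher against Cont and 3.64% against LowAhR. Of the 14854 genes, 1406 were called lower in LowAhR+AD against Cont and 923 against LowAhR. The keratin-associated proteins, which cross-link keratin filaments, summed to 50.2 to 432 CPM in Cont, 88.8 to 23227 CPM in LowAhR, 3081 to 41885 CPM in LowAhR+AD and 21145 to 54110 CPM in LowAhR+AD+BJ. 48 of their 49 tested genes rose in LowAhR+AD against Cont (edgeR), all but Krtap9-1 at an adjusted p of 0.0521, and all 49 in LowAhR+AD+BJ against Cont. Krtap19-5 was at 1049 ± 740 CPM (SD, n = 4) in LowAhR+AD, 1526 ± 568 CPM in LowAhR+AD+BJ and 0.301 ± 0.453 CPM in Cont. Krtap1-3 was at 115 ± 69.4, 187 ± 90.8 and 0.0308 ± 0.0617 CPM in those groups. Krtap5-4, at 23.4 ± 12.7 CPM in LowAhR+AD, and Krtap20-2, at 44.5 ± 34.7 CPM in LowAhR+AD+BJ, had no count in Cont. Against LowAhR, 3 rose in LowAhR+AD, Krtap31-2 by 3.61, Krtap5-2 by 3.76 and Krtap5-3 by 6.40 on the log2 scale. Their edgeR adjusted p-values were 0.0261, 0.0343 and 0.0413. Krtap5-3 averaged 0.0596 CPM in LowAhR, with 3 libraries at 0 counts, so the size of its fold change is not well measured. Against LowAhR, 20 rose without LowAhR replicate 4 and 5 without LowAhR+AD replicate 1. 1 rose without LowAhR replicate 2 or LowAhR+AD replicate 3, and 0 without LowAhR replicate 1 or 3 or LowAhR+AD replicate 2. limma voom called 8 of the 49 in LowAhR+AD against Cont and 11 in LowAhR+AD+BJ against Cont, where it called 10.2% and 9.18% of all genes higher.

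Of the other hard keratins, Krt32, Krt36, Krt39 and Krt84 were tested and all 4 rose in both DNCB groups against Cont. Krt32, a type I keratin of the cuticle, was at 13.5 ± 6.93 CPM in Cont, 46.7 ± 54.0 in LowAhR, 243 ± 89.2 in LowAhR+AD and 160 ± 58.2 in LowAhR+AD+BJ (SD, n = 4), and it was the only one to rise in LowAhR+AD against LowAhR (log2 2.38 ± 0.65, edgeR adjusted p = 0.0239). Of the inner root sheath and companion layer, all 9 tested genes rose in both DNCB groups against Cont, with Krt71 at 5.61 (adjusted p = 0.00428), Krt27 at 6.17 (adjusted p = 0.00355) and Tchh, trichohyalin, at 4.78 (adjusted p = 0.00694) in LowAhR+AD by edgeR. Against LowAhR, Krt75 of the companion layer rose in LowAhR+AD by 2.14 (edgeR adjusted p = 0.00932). Among 6 tested other proteins of the shaft, all 6 rose in LowAhR+AD against Cont, among them S100a3 of the cuticle by 6.82 (edgeR adjusted p = 0.00144) and Padi3, which converts arginines of shaft and sheath proteins, by 6.41 (adjusted p = 0.00219). Tgm3, a cross-linking transglutaminase, and Selenbp1 also rose against LowAhR, by 2.12 and 0.67 (adjusted p = 0.0137 and 0.0359). These differences from LowAhR turned on single libraries. Of the other hard keratins, 0 were called without LowAhR replicate 1 or 3 or LowAhR+AD replicate 2, 2 without LowAhR+AD replicate 1 and 3 without LowAhR replicate 4. Without LowAhR replicate 4, 2 sheath genes and 4 of the other shaft proteins were called, and 1 shaft protein was called without LowAhR replicate 1, 2 or 3 or LowAhR+AD replicate 2 or 3. Against Cont, limma voom called 5 of the 9 sheath genes, 2 of the 4 hard keratins and 3 of the 6 shaft proteins.

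Of 11 regulators of shaft differentiation, 6 rose in LowAhR+AD against Cont by edgeR, where 12.3% of all genes were called higher. Hoxc13 rose by 3.20 ± 0.63 on the log2 scale (adjusted p = 0.0019), Lef1, a mediator of Wnt signals, by 2.50 (adjusted p = 0.0406), Foxn1 by 2.18 (adjusted p = 0.0283), Vdr, the vitamin D receptor, by 1.74 (adjusted p = 0.00177), Dlx3 by 1.47 (adjusted p = 0.0299) and Ovol1 by 1.13 (adjusted p = 0.00658). Gata3, a factor of the inner root sheath, fell by 1.18 (adjusted p = 0.0136), and Msx2 was at 2.57 with an adjusted p of 0.0507. 4 rose against LowAhR, Vdr by 2.25 (adjusted p = 0.000848), Hoxc13 by 2.17 ± 0.60 (adjusted p = 0.0246), Dlx3 by 1.46 (adjusted p = 0.0454) and Ovol1 by 1.00 (adjusted p = 0.0217) (all by edgeR), and with LowAhR replicate 1, 2 or 3 left out 1 or 2 of the 11 were called higher. Against Cont, 3 of the 11 were called higher without Cont replicate 3. In LowAhR+AD+BJ against Cont, Msx2 rose by 2.86 (adjusted p = 0.0351), Hoxc13 by 2.40 (adjusted p = 0.0105) and Ovol1 by 0.78 (adjusted p = 0.0481), and Gata3 fell by 1.89 (adjusted p = 0.00085), with 1 of the 11 called higher when Cont replicate 2 or 3 or LowAhR+AD+BJ replicate 2, 3 or 4 was left out. Per library, Hoxc13 was at 13.5, 5.42, 5.92 and 6.70 CPM in Cont, at 21.9, 2.69, 3.77 and 35.9 in LowAhR, at 102, 59.9, 49.2 and 78.4 in LowAhR+AD, and at 20.98, 57.5, 48.2 and 39.6 in LowAhR+AD+BJ. In LowAhR its order, replicate 4, 1, 3, 2, was that of the hair keratins. LowAhR+AD replicate 1, lowest for most hair keratins, had the highest Hoxc13 of all libraries and 1.68 CPM of Msx2, where the rest of its group had 7.38 to 34.4.

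By edgeR 0 genes of these lists were called in LowAhR against Cont, where DESeq2 called 38 of the 49 keratin-associated proteins, 4 sheath genes, 3 other shaft proteins and 2 other hard keratins, and edgeR without LowAhR replicate 2 called 36, 4, 3 and 2. Of all genes, DESeq2 called 2.4% higher there, and edgeR without LowAhR replicate 2 called 0.93%. In LowAhR+AD+BJ against LowAhR+AD edgeR called 0, and DESeq2 called 1, Selenbp1, lower. There Hoxc13 was at -0.80 ± 0.58 (edgeR adjusted p = 0.67), Krt32 at -0.60 ± 0.62 (adjusted p = 0.784) and Tchh at 0.49 ± 0.99 (adjusted p = 0.899). In that comparison 32 of 49 keratin-associated proteins and 6 of 9 sheath genes were higher, with medians of 0.43 and 0.10. The median was -0.10 for the other hard keratins (2 of 4 higher), -0.45 for the other shaft proteins (2 of 6) and -0.71 for the regulators (3 of 11).

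**Figure D5:**
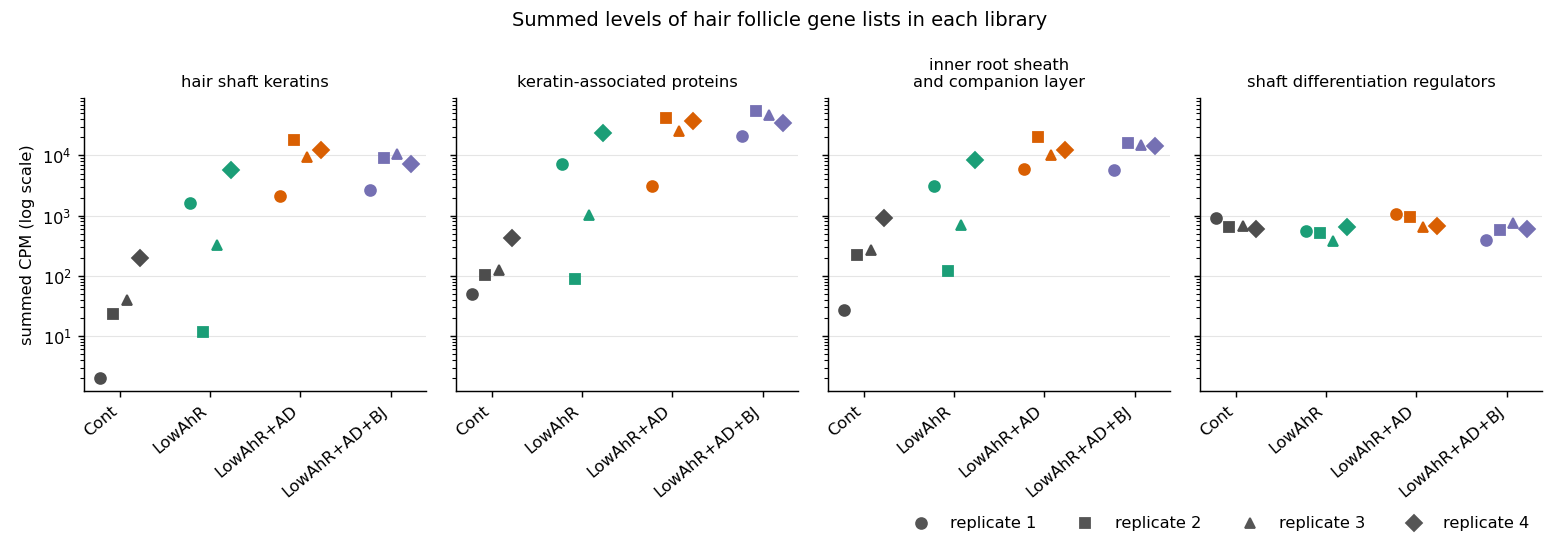
Summed CPM on a log scale of the hair keratins, the keratin-associated proteins, the inner root sheath and companion layer genes and the regulators of shaft differentiation, in each library by group. The first 3 sums move together across libraries over more than 2 orders of magnitude, while the summed regulators stay between 384 and 1064 CPM. That sum does not show single regulators, of which 6 rose and 1, Gata3, fell in LowAhR+AD against Cont. Gata3, the most abundant regulator in Cont, averaged 445 CPM there and 197 CPM in LowAhR+AD. Hoxc13 averaged 7.88 and 72.3 CPM.

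Among genes without a Krt or Krtap symbol, those whose log2 CPM was most like the summed hair keratins over the 16 libraries, among 11298 genes with at least 5 CPM on average, were Tchh (Pearson r 0.987), Ly6g6d, Gm11567, S100a3, Gm11563, Gm11562, Tchhl1, Gm10318, Gm11938 and Crym (0.974). The symbols of the 5 Gm genes name no family, so some may still be keratin-associated genes. The groups differ in level, and with group means subtracted the r of these 10 was 0.917 to 0.977. Crym, an enzyme that also binds thyroid hormone, was at 9.82, 91.2, 265 and 339 CPM on average in the Cont, diet, DNCB and BJIKT groups in turn, and S100a3 at 5.88, 196, 667 and 527 CPM.

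Single genes of the lists for follicle signals and other follicle cells changed. Of 7 tested growth signals, Wnt10a rose in LowAhR+AD against Cont by 2.14 (edgeR adjusted p = 0.00619), Fgf5, which had no count in Cont and 1.65 ± 1.05 CPM in LowAhR+AD, rose (adjusted p = 0.0282) and Fgf18 fell by 2.81 (adjusted p = 0.021). Of 7 genes of follicle stem cells, Sox9 rose against Cont by 1.75 (adjusted p = 0.0187) and Tcf7l1 by 1.05 (adjusted p = 0.036), and Cd34 fell by 2.08 (adjusted p = 0.000321). Against LowAhR, Sox9 rose by 2.64 (adjusted p = 0.00391), Lhx2 by 1.73 (adjusted p = 0.0233) and Lgr5 by 1.59 (adjusted p = 0.0434), and Cd34 fell by 1.48 (adjusted p = 0.00535). Of 5 dermal papilla genes, Crabp1 rose in LowAhR+AD against Cont by 3.67 (adjusted p = 0.00155). Of 6 melanocyte genes, Dct rose in LowAhR+AD against Cont by 1.85 (adjusted p = 0.012), Tyrp1 by 3.77 (adjusted p = 0.0092) and Slc45a2 also rose (adjusted p = 0.0363). Of 10 cell cycle genes, 5 rose against Cont, Birc5, Ccnb1, Cdk1, Plk1 and Top2a, and 7 against LowAhR, where 12.3% and 6.42% of all genes were called higher. Leaving out 1 library moved several of these counts. Against Cont, 1 growth signal was called higher without Cont replicate 1, 2 or 4, and 0 called lower without LowAhR+AD replicate 3. 0 stem cell genes were called higher without Cont replicate 4 and 1 without Cont replicate 1 or 3 or LowAhR+AD replicate 1 or 3, and 2 dermal papilla genes without Cont replicate 2. Against LowAhR, 1 stem cell gene was called higher without LowAhR+AD replicate 1, and 2 or 3 cell cycle genes without LowAhR replicate 1 or 2 or LowAhR+AD replicate 2.

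Markers of other skin cell types changed between the same groups. All 4 stress keratins of activated epidermis rose in LowAhR+AD, Krt6b by 8.41 against LowAhR (edgeR adjusted p = 0.000773), and in LowAhR+AD+BJ, Krt6b by 8.86 (adjusted p = 0.00111), Krt16 by 5.85 (adjusted p = 0.000356) and Krt6a by 5.49 (adjusted p = 0.000356). Of 5 basal and suprabasal genes, Krt14 and Krt5 rose and Krt2 fell in LowAhR+AD against LowAhR, and their sum was 4368 to 5560 CPM in LowAhR and 5901 to 12307 in LowAhR+AD. All 10 skeletal muscle genes fell in LowAhR+AD against LowAhR and 7 of 10 against Cont, with sums of 10447 to 18820 CPM in Cont, 14591 to 30576 in LowAhR, 585 to 5250 in LowAhR+AD and 4263 to 14003 in LowAhR+AD+BJ. Of 9 adipocyte genes, 8 fell against LowAhR, with sums of 8397 to 13000 CPM in LowAhR and 389 to 3931 in LowAhR+AD. Of 5 fibroblast genes, Col1a1 and Col1a2 fell against LowAhR, and of 6 sebaceous genes Scd1, Scd3 and Awat2. Krt2 was not called without LowAhR replicate 2 or LowAhR+AD replicate 1 or 4, and 0 or 1 fibroblast genes were called without LowAhR replicate 2 or 3 or LowAhR+AD replicate 2 or 4. Of 4 tested neutrophil genes S100a8, S100a9 and Cxcr2 rose, and of 5 T cell genes Cd3e, by 6.18 (edgeR adjusted p = 0.0139), and Cd3g fell. Cd3e averaged 3.74 CPM in LowAhR and 0.0388 CPM in LowAhR+AD, so the size of its fall is not well measured. The T cell sum was at 0 in LowAhR+AD replicate 1 and at most 8.78 CPM in its group. The part of tissue make-up in the hair keratin levels was not tested.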

How the data were processed

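RNA from the dorsal skin of 16 mice, 4 per group, was measured by QuantSeq 3' sequencing (single end, NextSeq instrument). The authors deposited raw read counts per gene symbol for each library, without normalization. The submitters' processing notes name Bowtie2, bedtools and mm10 (the same build as GRCm38), with no version, and the paper names ExDEGA for differential expression. How reads mapping to several genes were counted is not given in the sources used here.

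Groups were taken from the sample labels. All 23282 rows of the 16 libraries were analysed in 1 model in R 4.3.3 with edgeR 4.0.16: filterByExpr at 10 counts per library and 15 in total (14854 rows kept), TMM factors, and the quasi-likelihood test with Benjamini-Hochberg adjustment over all tested rows at 0.05. Standard errors are the fold change divided by the root of F. Log2 CPM used a prior count of 2, and a count of 0 was read as allowing 3 counts. Shares have 95% Wilson intervals in the underlying tables, which cover counting error only. Replicate pairs of a group differed far beyond sampling noise, with a chi-square per degree of freedom of 16.4 to 285, so each library counted as 1 replicate. Simulated counts with known fold changes were used to check the direction and size of fitted changes. They are no check of the number of genes called here.

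The hair keratins and all gene lists were chosen with earlier results of these data known, and nothing is supported with their choice. Outside the hair keratins, genes were named as the 3 largest changes among called list genes in each comparison, those behind a count of 5 or fewer, and the 10 most alike in level. Others named as examples were chosen after their values were seen. The alternatives tried were DESeq2 1.42.0, limma voom (3.58.1), RLE or upper-quartile scaling, other filters, only the libraries compared, library sizes without hair, muscle and fat genes, the replicate number as a block, and each library left out. Promoters came from RefSeq (GRCm38.p6) and gene positions from GENCODE M21.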

Additional observations from a re-analysis of the deposited data

Results flagged for a closer look

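Each hair keratin in each group of 4 libraries, 40 groups in all, was tested by Dixon's criterion for a library far from the others, which by chance alone picks about 1 in 20 groups, and 3 were picked. Krt31 in Cont replicate 4, at 20.2 CPM, lay far above its group, whose other libraries were at 1.68 to 1.97 CPM. Krt35 in LowAhR+AD+BJ replicate 1, at 68.4 CPM, lay far below the other 3, at 164 to 172 CPM. Krt83 in LowAhR replicate 4, at 3.22 CPM, was the only LowAhR library with a count. Cont replicate 4 was the highest of its group for 9 of the 10 hair keratins, and LowAhR+AD+BJ replicate 1 the lowest of its group for all 10.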

How the results depend on the processing

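All 10 hair keratins kept their place in every fit, with these exceptions. The fit requiring 10 counts in every library left none of them, so it gave no value. In each fit to only the 8 libraries compared, Krt83 was not tested. The median fold change of the hair keratins kept its direction in every alternative. The number called changed with the tool. The share of all genes called higher under the same setting is given in brackets. DESeq2 called 5 in LowAhR against Cont (2.4%) and 10 in LowAhR+AD against Cont (14.2%). limma voom called 7 in LowAhR+AD against LowAhR (6.15%) and 2 in LowAhR+AD against Cont (10.2%). In LowAhR+AD+BJ it called 2 against LowAhR (3.21%) and 0 against Cont (9.18%). The cause was not tested. With 1 library left out, the number called was 0 to 5 in LowAhR against Cont (5 without LowAhR replicate 2, 0.93%). For LowAhR+AD against LowAhR it was 0 to 4 (4 without LowAhR replicate 4, 7.19%, and 1 without LowAhR+AD replicate 1, 5.34%). For LowAhR+AD+BJ against LowAhR it was 0 to 1 (1 without LowAhR replicate 4, 4.06%). Against Cont it was 9 in LowAhR+AD (8.96% to 12.6%) and 9 in LowAhR+AD+BJ (7.74% to 11.1%). In LowAhR+AD+BJ against LowAhR+AD it was 0 (at most 0.00664%). The medians then ranged from 2.72 to 6.14 for LowAhR against Cont, from 1.90 to 4.15 and 6.44 to 8.40 for LowAhR+AD against LowAhR and Cont, from -0.85 to -0.10 for LowAhR+AD+BJ against LowAhR+AD, and from 1.25 to 3.71 and 5.95 to 7.86 for LowAhR+AD+BJ against LowAhR and Cont. Deviations from the group means correlated weakly between same-numbered libraries of different groups (r of -0.055 to 0.167, where different numbers gave -0.146 to 0.140). The main fit did not pair libraries by number, and whether same numbers share a batch was not tested. With a replicate block, 1 hair keratin, Krt35, was called in LowAhR+AD against LowAhR (median 2.70), where 5.51% of all genes were called higher. The other comparisons kept their counts of 0 or 9, the 9 beside 11% in LowAhR+AD and 10.7% in LowAhR+AD+BJ, both against Cont. Without Krt81, Krt83, Krt86, Krt33a and Krt33b, the median type II to type I ratio was 0.579 in LowAhR, 0.408 in LowAhR+AD and 0.364 in LowAhR+AD+BJ, which follows from leaving out Krt81, and with 5430421N21Rik added, chosen after seeing the data, it was 2.11 in LowAhR+AD+BJ. Depth limits Krt83, the Cont levels and LowAhR replicate 2, which had 0 counts of Krt33b, Krt82, Krt83, Krt85 and Krt86.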
